A study of Mus musculus with 6 samples.

Results

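The transcripts of 5 secreted ligands and 2 receptors were followed through single-cell libraries of YUMM2.1 mouse melanoma: Xcl1, Ccl3, Ccl4, Ccl5 and Flt3l, with Xcr1, the receptor of XCL1, and Flt3, the receptor of FLT3L. These 7 genes were taken by symbol from the 31053 genes of the count matrices. They were selected on measured values of the same libraries, beside the larger share of cells with an Xcr1 transcript in WT-Bmal1, so that share and the levels of Xcr1 are descriptions and were not tested. The groups were Empty vector (EV) and Bmal1 WT (WT-Bmal1), and both are YUMM2.1 lines, which carry Braf V600E, stably transduced with lentivirus and sorted for GFP in the study. Bmal1 is a core transcription factor of the circadian clock, and the native gene was present in both groups. Each group was 1 droplet library that pooled 3 replicates marked by hashtag antibodies (h1, h7 and h8 for EV, h3, h5 and h9 for WT-Bmal1). Group and droplet channel therefore cannot be told apart. The labels do not say whether the replicates were separate animals, so p-values measure the spread between these hashtag replicates only. The labels name the cell line as the source and give no host, age or time, while the libraries held immune cells beside melanoma cells. In 3 of 3 parts the Bmal1 bHLH files copied the WT-Bmal1 files, and that group was not analysed here.

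As background, conventional type 1 dendritic cells (cDC1) take up material from dying cells and present it to CD8 T cells, and they are the main cells that carry XCR1. NK cells and activated CD8 T cells secrete XCL1 and CCL5, which attract cDC1 to tumors. Lymphocytes also make FLT3L, the growth factor on which dendritic cells depend through the receptor tyrosine kinase FLT3. CCL3, CCL4 and CCL5 are inflammatory chemokines that attract leukocytes.

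In the GENCODE M21 annotation (GRCm38), the genes of 3 ligands lie together, with Ccl5 at chr11:83525778-83530518 on the minus strand, Ccl3 at chr11:83647844-83649355 on the minus strand and Ccl4 at chr11:83662584-83664683 on the plus strand. Xcl1 lies at chr1:164931644-164935527, Xcr1 at chr9:123852315-123862029, Flt3 at chr5:147330741-147400489 and Flt3l at chr7:45129788-45136432, all on the minus strand. Flt3l is overlapped on its own strand by Gm45713, which had 0 UMIs against 1453 for Flt3l, so the level of Flt3l is uncertain where reads fit both genes. Flt3 is overlapped on the other strand by Gm26597, which had 26 UMIs against 2038, and Xcl1 by Gm20743, which was not in the matrices. The sources used here do not state whether counting used strand.

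RefSeq promoters (GRCm38.p6), from 250 bases before to 50 bases after the gene start, were matched for 5 of the 7 genes, which were Xcl1, Xcr1, Ccl3, Flt3l and Flt3. They were searched on both strands for the E-box CACGTG, which the clock factor dimer with Bmal1 binds, and for the AP-1 motif TGANTCA, which does not overlap it. The E-box was found in Xcr1, with its first base at -227 from the start, and in Flt3, with its first base at 4. AP-1 was found in none of the 5. Of 32851 promoters of the same length, 7.15% held the E-box and 7.81% held AP-1. The promoters of both receptors and of the ligand Xcl1 are shown 5′ to 3′, with the E-box in capitals, because the receptor windows hold the motif and the ligand window does not. They lie at chr9:123861980-123862279 (Xcr1), chr5:147400440-147400739 (Flt3) and chr1:164935473-164935772 (Xcl1), all on the minus strand. A match describes these letters and is not a binding site.
Xcr1: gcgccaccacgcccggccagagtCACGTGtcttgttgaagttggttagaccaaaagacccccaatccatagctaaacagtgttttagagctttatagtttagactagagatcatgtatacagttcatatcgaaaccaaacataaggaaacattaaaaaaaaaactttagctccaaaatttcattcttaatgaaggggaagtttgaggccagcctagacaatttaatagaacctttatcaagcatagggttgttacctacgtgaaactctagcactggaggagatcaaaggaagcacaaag
Flt3: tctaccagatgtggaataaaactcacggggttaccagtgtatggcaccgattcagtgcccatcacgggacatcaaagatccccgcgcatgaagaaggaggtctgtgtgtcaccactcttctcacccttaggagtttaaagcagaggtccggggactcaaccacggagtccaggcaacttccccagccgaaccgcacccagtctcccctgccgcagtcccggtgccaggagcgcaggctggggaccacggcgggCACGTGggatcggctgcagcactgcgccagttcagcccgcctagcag
Xcl1: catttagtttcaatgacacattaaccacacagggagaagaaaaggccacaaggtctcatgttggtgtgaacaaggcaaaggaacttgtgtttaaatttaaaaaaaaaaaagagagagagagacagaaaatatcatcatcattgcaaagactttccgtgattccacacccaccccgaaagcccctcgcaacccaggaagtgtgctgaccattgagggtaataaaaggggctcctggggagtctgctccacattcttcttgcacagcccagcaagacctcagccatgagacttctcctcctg

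The EV library held 3978 cells after filtering (median 5094 UMIs) and the WT-Bmal1 library 2386 (median 7570.5 UMIs), of which 3222 and 1621 carried exactly 1 hashtag. No hashtag was found on 9.75% of EV and 27.7% of WT-Bmal1 cells, and 5 of 6927 barcodes occurred in both libraries. The replicates held 326 to 1403 cells and 4655548 to 11873279 UMIs. Clustering without the 7 genes gave NK-like (1109 EV and 404 WT-Bmal1 cells), T-cell-like (1213 and 400) and macrophage- or monocyte-like classes (750 and 420). It also gave a cDC1-like cluster in which 11 of 11 markers were raised (68 and 113 cells), mature-dendritic-like cells (172 and 114), cDC2-like cells (222 and 72) and plasmacytoid-like cells (47 and 9). The melanoma-like cluster (107 and 322 cells) had 6 of 12 of its markers raised. Levels are UMIs scaled to 1000000 UMIs of the same cells (CPM), a 3′ count that does not scale with transcript length. Intervals in parentheses are exact 95% intervals and cover counting error only.

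Cells with an Xcr1 UMI were 1.66% (66 of 3978, 1.29 to 2.11) of the EV library and 4.02% (96 of 2386, 3.27 to 4.89) of the WT-Bmal1 library. By replicate the share was 2.0%, 0.718% and 1.51% in EV h1, h7 and h8 and 5.0%, 3.84% and 8.28% in WT-Bmal1 h3, h5 and h9. Each WT-Bmal1 replicate lay above each EV replicate, which is the difference beside which the genes were selected. With each cell thinned to 2000 UMIs and shallower cells left out, the shares were 1.07% (36 of 3363, 0.751 to 1.48) and 2.49% (50 of 2007, 1.85 to 3.27). Among cDC1-like cells, 69.1% (47 of 68, 56.7 to 79.8) of EV cells and 70.8% (80 of 113, 61.5 to 79.0) of WT-Bmal1 cells had an Xcr1 UMI, at median depths of 3404.5 and 4539 UMIs. After thinning these shares were 64.4% (48.8 to 78.1) and 64.5% (52.7 to 75.1), with 23 of 68 and 37 of 113 cells left out. Lymphocytes should lack the receptor. Before thinning, an Xcr1 UMI was found in 0.0902% of EV and 0 of 404 WT-Bmal1 NK-like cells (median depths 4087 and 6065.5 UMIs) and in 0.577% and 1.75% of T-cell-like cells (4163 and 6442 UMIs). After thinning the EV shares were 0.105% of NK-like and 0.300% of T-cell-like cells. Thinned WT-Bmal1 cells had one in 0 of 378 and 0 of 375, and by the limit of 3 counts these allow up to 0.794% and 0.800%.

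The cDC1-like cluster itself made up 1.36% ± 0.582 (SD, n = 3) of cells in the EV replicates and 6.59% ± 2.0 in the WT-Bmal1 replicates. In the whole libraries it was 1.71% (68 of 3978, 1.33 to 2.16) and 4.74% (113 of 2386, 3.92 to 5.67). Hashtags were missing unevenly by class, as cells of unnamed clusters numbered 310 in the WT-Bmal1 library but 8, 13 and 9 in h3, h5 and h9. Shares of hashtagged cells thus differ from those of the library. Within the dendritic-cell-like cells its share was 14.9%, 4.76% and 12.1% in EV h1, h7 and h8 and 33.3%, 32.1% and 50.9% in WT-Bmal1 h3, h5 and h9. The replicates of the groups did not overlap for the share of all cells or for that of dendritic-cell-like cells. cDC2-like cells were 45.7% ± 5.91 of dendritic-cell-like cells in EV and 22.1% ± 4.17 in WT-Bmal1, and mature-dendritic-like cells were 33.2% ± 4.04 and 36.5% ± 10.3. A sum over dendritic-cell-like cells thus mixes these classes in different proportions in the groups. NK-like cells were 30.5% ± 4.47 of immune cells in EV and 25.1% ± 2.36 in WT-Bmal1, and T-cell-like cells 35.2% ± 2.09 and 27.4% ± 1.01. Macrophage- or monocyte-like cells, which also express Ccl3 and Ccl4, were 750 of 3605 immune cells in the EV library and 420 of 1547 in the WT-Bmal1 library.

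**Figure D1:**
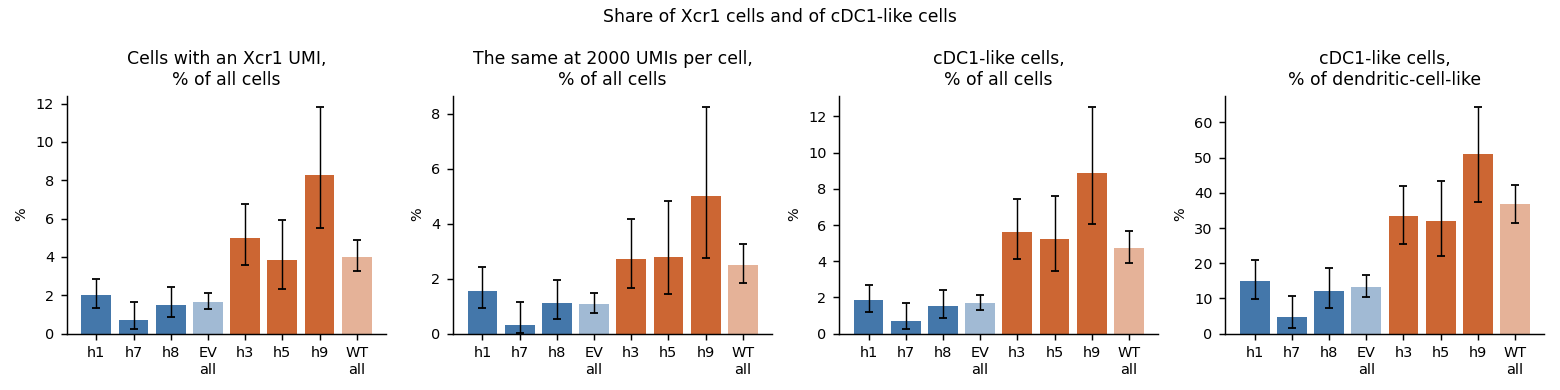
Shares (%) of Xcr1 cells and of cDC1-like cells by hashtag replicate and library, blue for EV and orange for WT-Bmal1, with exact 95% binomial intervals. The WT-Bmal1 replicates stand above the EV replicates, for example at 3.84% to 8.28% of all cells against 0.718% to 2.0%.

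Xcl1, Flt3l and Ccl5 came mainly from lymphocytes and both receptors from dendritic cells, while Ccl3 and Ccl4 were also divided with myeloid cells. NK-like and T-cell-like cells together gave 98.2% ± 2.28 (SD, n = 3) of the Xcl1 UMIs in the EV replicates and 99.6% ± 0.432 in WT-Bmal1. They gave 84.3% ± 2.22 and 77.1% ± 8.10 of the Flt3l UMIs and 78.9% ± 6.20 and 76.0% ± 8.30 of the Ccl5 UMIs. The shares were lower for the chemokines that myeloid cells also make, at 63.8% ± 7.87 and 50.6% ± 4.60 for Ccl4 and 58.0% ± 3.89 and 29.5% ± 22.6 for Ccl3. Macrophage- or monocyte-like cells gave 26.7% ± 11.2 of the Ccl3 UMIs in EV and 48.7% ± 26.7 in WT-Bmal1, and 13.2% ± 9.34 and 23.3% ± 10.4 of the Ccl4 UMIs. Dendritic-cell-like cells gave 94.6% ± 7.13 and 97.8% ± 2.07 of the Xcr1 UMIs and 95.7% ± 2.34 and 94.2% ± 0.727 of the Flt3 UMIs. In such sums over all cells, fewer cells of a class and less RNA per cell cannot be told apart, so levels were compared within classes. A class can still mix clusters in different proportions in the groups.

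**Figure D2:**
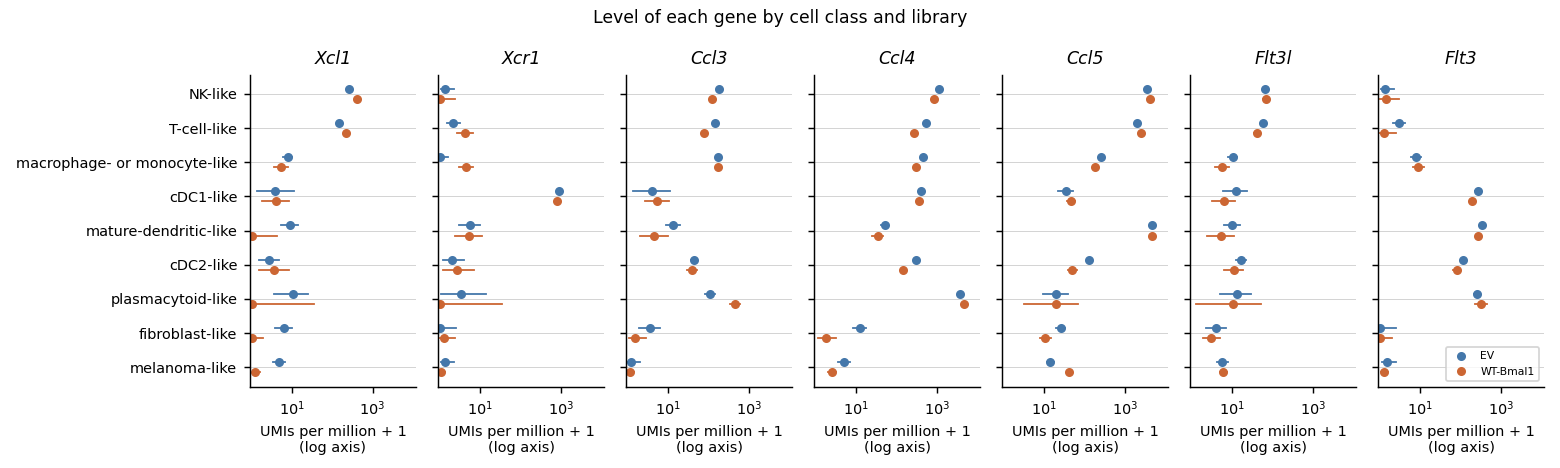
Level of each of the 7 genes (CPM plus 1, log axis) in the cell classes of each library, blue for EV and orange for WT-Bmal1, with Poisson 95% intervals. Xcr1 reaches 889 and 822 CPM in cDC1-like cells, and Ccl5 is high both in NK-like (3561 and 4323) and in mature-dendritic-like cells (4734 and 4715).

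Xcl1, the ligand of XCR1, was highest in NK-like cells among the named classes with at least 50 cells. Its NK-like level was 296, 332 and 190.0 CPM in EV h1, h7 and h8 and 544, 114 and 384 in WT-Bmal1 h3, h5 and h9. WT-Bmal1 h5 lay below the 3 EV replicates while h3 and h9 lay above them, so the groups overlapped. The log2 fold change (WT-Bmal1 over EV) was 0.41 ± 0.28 (SE) and did not pass (edgeR adjusted p = 0.633), and it was -0.19 without WT-Bmal1 h3 and 0.81 without WT-Bmal1 h5. Xcr1 and Flt3 had too few UMIs in NK-like and T-cell-like cells to be tested. None of 5 members passed in NK-like cells, where 6 of 9195 genes did (0.0653%) and DESeq2 called 78. An unadjusted p under 0.05 was found for 3 of the 5 members, beside 10.8% of all genes. T-cell-like levels of Xcl1 were 169.9, 131 and 115 CPM in EV and 268, 153 and 183 in WT-Bmal1, which overlapped. In log2 the change was 0.55 ± 0.20 (edgeR adjusted p = 0.129), 0.26 without WT-Bmal1 h3, and 0.62 by DESeq2 (adjusted p = 0.0439). The T-cell-like class mixed clusters in different proportions in the groups. Cluster 22, led by cell division genes, held 1133923 of 7271429 T-cell-like UMIs in the EV library and 1384617 of 3817111 in the WT-Bmal1 library. Its Xcl1 level was 132 CPM in EV and 324 in WT-Bmal1. The part of this mix in the change was not tested. None of 5 members passed in edgeR in T-cell-like cells, where 362 of 10131 genes did (3.57%), and 2 of the 5 were under 0.05 unadjusted, beside 21.6% of all genes.

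An Xcl1 UMI was found in 37.3% of EV and 42.1% of WT-Bmal1 NK-like cells, and in 25.8% (23.0 to 28.7) and 29.6% (25.1 to 34.5) after thinning, which left out 159 and 26 cells. Melanoma-like cells, which should lack the gene, had one in 2.80% and 0.932% at median depths of 29593 and 42048 UMIs, so the NK-like share stood far above this background. The transcript was uneven within the class, as the 5% of NK-like cells with the most Xcl1 gave 48.2% of its UMIs in EV and 53.2% in WT-Bmal1.

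**Figure D3:**
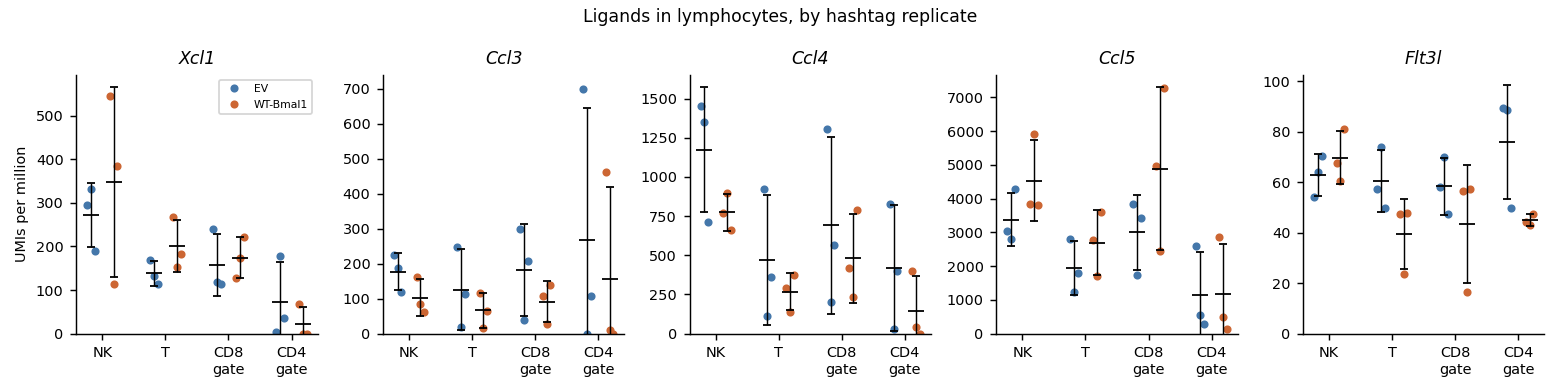
Level of the 5 ligand genes (CPM) in NK-like cells, T-cell-like cells and T-cell gates, with hashtag replicates as points (blue EV, orange WT-Bmal1) and the mean ± SD of 3. For Xcl1 in NK-like cells, WT-Bmal1 h5 (114) stands below and h3 (544) above the EV points.

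Within NK-like cells Xcl1 ran opposite to the other chemokines. Cluster 5, led by Eomes, Klrb1c and Gzmc, had 312 CPM in EV and 509.7 in WT-Bmal1, and cluster 9, led by the cytotoxic genes Gzma, Gzmb and Prf1, had 127 CPM in EV and 132 in WT-Bmal1. Cluster 5 was higher for Xcl1 in 6 of 6 replicates and for Ccl3, Ccl4 and Ccl5 in 0 of 6. Ccl5 stood at 2289 CPM in EV and 2358 in WT-Bmal1 in cluster 5 and at 6405 CPM in EV and 10180.5 in WT-Bmal1 in cluster 9. Among T-cell-like cells, cluster 0, led by the gamma delta T cell genes Tcrg-C4 and Trdc, had 240.2 CPM in EV and 400.4 in WT-Bmal1 of Xcl1, and the Cd8b1 and Gzmk cluster 2 had 125 CPM in EV and 18.6 in WT-Bmal1, lower in 6 of 6 replicates. Cluster 8 had 208 CPM in EV and 161 in WT-Bmal1, with cluster 0 higher in 3 of 6 replicates, and cluster 22, led by cell division genes such as Mki67 and Top2a, had 132 CPM in EV and 324 in WT-Bmal1. Cluster 22 had 10 of 12 T cell markers raised but also 4 of 11 NK markers. At Leiden resolution 2, cells led by division genes formed a T-cell-like cluster (38 EV and 43 WT-Bmal1 cells) and an NK-like cluster (29 and 19). The level of cluster 22 may therefore include NK cells. Cell by cell, 67.0% (57.4 to 75.6) of thinned WT-Bmal1 NK-like cells with an Xcl1 UMI had a Ccl5 UMI, against 86.5% (81.8 to 90.3) of those without. In EV these shares were 79.6% (74.0 to 84.5) and 82.6% (79.5 to 85.3). Clusters were drawn from the same cells, so these levels are descriptions.

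T-cell-like cells were also gated on UMIs of Cd4, Cd8a, Cd8b1 and Foxp3. The CD8 gate (465 and 184 cells) had 181 CPM in EV and 169 in WT-Bmal1 of Xcl1 and the CD4 gate (229 and 67 cells) 84.2 CPM in EV and 49.7 in WT-Bmal1, with CD8 higher in 5 of 6 replicates. By replicate the CD8 gate had 239.9, 119 and 114 CPM in EV and 127, 174 and 222 in WT-Bmal1, which overlapped. Cells that met no gate (453 and 111) had 122, 145 and 167 CPM in EV and 599, 199 and 353 in WT-Bmal1. In these ungated cells the replicates of the groups did not overlap for 2 of 5 members, Xcl1 and Flt3l, beside 20.6% of all genes. The ungated cells were looked at after the values were seen, and the difference was not tested.

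Ccl5, which attracts T cells and dendritic cells, had NK-like levels of 3048, 2804 and 4278 CPM in EV h1, h7 and h8 and 3848, 5907 and 3821 in WT-Bmal1 h3, h5 and h9, with overlap. This was a log2 fold change of 0.42 ± 0.15 (edgeR adjusted p = 0.299) and of 0.18 without WT-Bmal1 h5. T-cell-like levels were 2803, 1246 and 1793 CPM in EV and 2774, 1695 and 3609 in WT-Bmal1, also with overlap, and the log2 fold change was 0.46 ± 0.27 (adjusted p = 0.347). Ccl5 was higher in NK-like than in T-cell-like cells in 6 of 6 replicates. It was higher in the CD8 than in the CD4 gate in 6 of 6, with 3369 CPM in EV and 4286 in WT-Bmal1 against 959 CPM in EV and 1842 in WT-Bmal1.

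Separated by cluster, Ccl5 was higher in each WT-Bmal1 replicate than in each EV replicate in 1 T-cell-like and 1 NK-like cluster. In T-cell-like cluster 8, led by Cd8a, Pdcd1 and Tox, it stood at 2510.3, 4574 and 3614 CPM in EV h1, h7 and h8 and 10091, 8312 and 13403 in WT-Bmal1 h3, h5 and h9. In NK-like cluster 9 it stood at 5709, 6253 and 7173 CPM in EV and 9863, 11101 and 9917 in WT-Bmal1. The replicates did not overlap for 2 of 5 members in cluster 8, Ccl5 and Flt3l, beside 12% of all genes, and for Ccl5 and Flt3l in cluster 9, beside 13.1%. Flt3l went in opposite directions, with 63.8 ± 21.3 CPM in EV and 32.8 ± 17.1 in WT-Bmal1 in cluster 8 and 58.4 ± 13.9 CPM in EV and 94.8 ± 26.5 in WT-Bmal1 in cluster 9 (mean ± SD, n = 3). In NK-like cluster 5 Ccl5 was at 2048, 1338 and 2899 CPM in EV and 2114, 2877 and 2565 in WT-Bmal1, and in T-cell-like cluster 2 at 6862, 3054 and 5822 CPM in EV and 6366, 5774 and 5573 in WT-Bmal1, and both overlapped. Cluster 8 held only 20, 10 and 19 hashtagged WT-Bmal1 cells. Clusters 8 and 9 were singled out after their values were seen, and the difference was not tested.

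**Figure D4:**
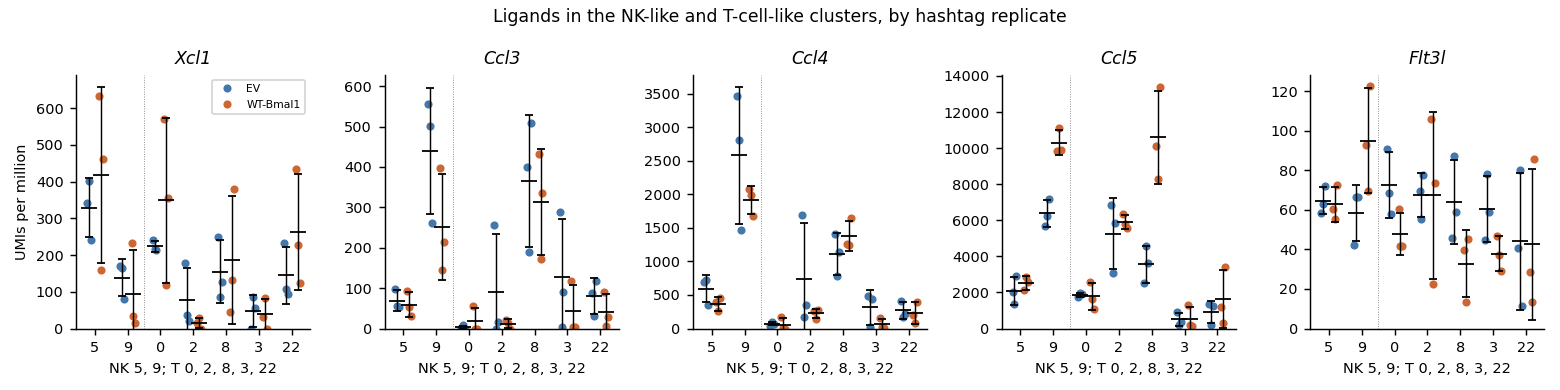
Level of the 5 ligand genes (CPM) in the NK-like and T-cell-like clusters, with hashtag replicates as points (blue EV, orange WT-Bmal1) and the mean ± SD of 3. Xcl1 is higher in cluster 5 than in cluster 9 while Ccl5 is lower, and the WT-Bmal1 points of Ccl5 in cluster 8 (8312 to 13403) stand above the EV points (2510.3 to 4574).

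Mature-dendritic-like cells, which carry Ccr7 and Fscn1, were a further source of Ccl5. Their levels were 5960.3, 4447 and 3228 CPM in EV h1, h7 and h8 and 5187, 5127 and 3009 in WT-Bmal1 h3, h5 and h9, with overlap. This was above the NK-like level in 3 of 6 replicates, above the T-cell-like level in 5 of 6 and above the cDC1-like level in 6 of 6. cDC1-like cells had 33.1 CPM in EV and 45.6 in WT-Bmal1, and 1 cell gave 90.3% of the WT-Bmal1 UMIs. A Ccl5 UMI was found in 94.2% of EV and 87.7% of WT-Bmal1 mature-dendritic-like cells, and in 91.6% and 87.0% after thinning (29 and 37 cells left out). Thinned fibroblast-like cells, which should lack Ccl5, had one in 3.31% and 1.63%. Median depths were 7803.5 and 6573.5 UMIs in the first class and 13650 and 18292 in the second.

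Ccl4, an inflammatory chemokine, had NK-like levels of 1451, 1350.2 and 715 CPM in EV h1, h7 and h8 and 773, 896 and 659 in WT-Bmal1 h3, h5 and h9. EV h1 and h7 lay above the WT-Bmal1 replicates and EV h8 among them. In log2 the change was -0.59 ± 0.18 (edgeR adjusted p = 0.198), and without EV h8 it was -0.85 and passed (adjusted p = 6.48e-04). T-cell-like levels were 925, 115 and 364 CPM in EV and 289, 139 and 373 in WT-Bmal1, with a log2 fold change of -0.85 ± 0.53 (adjusted p = 0.381) that was 0.11 without EV h1. Ccl4 was higher in NK-like than in T-cell-like cells in 6 of 6 replicates and higher in the CD8 than in the CD4 gate in 6 of 6.

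Ccl3, the neighbor of Ccl4 in the genome, had NK-like levels of 224, 188 and 120.2 CPM in EV h1, h7 and h8 and 161, 86.1 and 62.8 in WT-Bmal1 h3, h5 and h9, which overlapped. In log2 the change was -0.61 ± 0.23 (edgeR adjusted p = 0.334). T-cell-like levels were 248, 17.8 and 113 CPM in EV and 118, 16.6 and 65.1 in WT-Bmal1, with a log2 fold change of -0.90 ± 0.66 (adjusted p = 0.465) that was 0.014 without EV h1. The pair often occurred in the same NK-like cells, as 79.3% (71.6 to 85.7) of thinned EV cells with a Ccl3 UMI had a Ccl4 UMI against 36.5% (33.2 to 40.0) of those without, and 76.0% (61.8 to 86.9) against 34.1% (29.0 to 39.6) in WT-Bmal1.

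Myeloid cells were the other source of both chemokines. Macrophage- or monocyte-like levels of Ccl3 were 198, 99.2 and 150.4 CPM in EV and 152, 243 and 170.2 in WT-Bmal1 and those of Ccl4 515, 93.0 and 385 CPM in EV and 336, 373 and 186 in WT-Bmal1, with overlap for each. The log2 fold changes were 0.32 ± 0.26 and -0.16 ± 0.50 (edgeR adjusted p = 0.694 and 0.944). In this class 0 of 5 members and 0 of 9495 genes passed (0%), with 1042 genes under 0.05 unadjusted and 32 called by DESeq2. The class gave 29.2% of the Ccl3 UMIs of the EV library and 40.3% of those of WT-Bmal1.

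Junb, Fos, Zfp36 and Egr1, which tissue dissociation induces, were lower in WT-Bmal1 T-cell-like cells beside these chemokines. Of the 11 dissociation genes listed, 4 fell and 0 rose there, while of all 10131 genes tested 142 fell and 220 rose (3.57% called). Unadjusted, 6 of the 11 were under 0.05, beside 21.6% of all genes. Junb, a subunit of AP-1, was at 2413 ± 385 CPM in EV and 1432 ± 260.4 in WT-Bmal1 (log2 fold change -0.75 ± 0.14, edgeR adjusted p = 0.0170). Junb no longer passed without EV h1 (-0.77, adjusted p = 0.0577) or WT-Bmal1 h3 (-0.78, adjusted p = 0.0577). Of the 6 fits that left out 1 replicate, Zfp36 failed in 1 (without WT-Bmal1 h3, -1.16, edgeR adjusted p = 0.0512), Egr1 in 4 (without EV h1 or WT-Bmal1 h3, h5 or h9, adjusted p up to 0.0632) and Fos in 5 (all but the one without EV h8, adjusted p up to 0.153), and Fos also failed with TMM factors, marker gates, Leiden resolution 2 and the stricter cell filter. In NK-like cells 0 of 11 passed and 3 were under 0.05 unadjusted, beside 10.8% of all genes. In dendritic-cell-like cells 1 of 11 fell, beside 0.483% of all genes called. This was Zfp36 (-0.66 ± 0.10, edgeR adjusted p = 0.0375), which failed in 6 of 6 fits that left out 1 replicate (adjusted p = 0.0520 to 0.123). In macrophage- or monocyte-like cells 0 of 11 passed. Unadjusted, 4 of 11 were under 0.05 in each of these classes, beside 15.7% and 11% of all genes. The part of the dissociation genes in the levels of Ccl3 and Ccl4 was not tested.

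Flt3l, the growth factor of dendritic cells, was low in lymphocytes, at 62.8 ± 8.16 CPM in EV and 69.8 ± 10.5 in WT-Bmal1 in NK-like cells and 60.3 ± 12.2 CPM in EV and 39.6 ± 13.8 in WT-Bmal1 in T-cell-like cells (mean ± SD, n = 3). NK-like levels were 54.1, 64.1 and 70.3 CPM in EV h1, h7 and h8 and 67.7, 60.4 and 81.1 in WT-Bmal1 h3, h5 and h9, which overlapped, with a log2 fold change of 0.12 ± 0.18 (edgeR adjusted p = 0.855). T-cell-like levels were 57.2, 73.8 and 49.9 CPM in EV and 47.5, 23.6 and 47.6 in WT-Bmal1 and did not overlap, with a log2 fold change of -0.59 ± 0.24 that did not pass (adjusted p = 0.170) and was -0.32 without WT-Bmal1 h5. In the libraries cluster 22 had 31.7 CPM in EV and 26.0 in WT-Bmal1, and the other T-cell-like clusters had 51.0 to 69.4 and 41.5 to 69.2. Cluster 22 held 527547 of the 1144217 T-cell-like UMIs of WT-Bmal1 h5. The part of this mix in the change was not tested. Flt3l was the 1 of 5 members without overlap in T-cell-like cells, beside 26.1% of all genes, and 0 of 5 were so in NK-like cells, beside 16.4%, and 0 of 5 in macrophage- or monocyte-like cells, beside 17%. The test of whether the change differed between NK-like and T-cell-like cells gave 0.69 ± 0.27 for Flt3l (adjusted p = 0.829), and 0 of 5 members passed it, while 2 of 10807 genes did (0.0185%). In the whole libraries, melanoma-like cells (107 in EV and 322 in WT-Bmal1) had 4.63 CPM in EV and 5.03 in WT-Bmal1. They gave 2.80% of the Flt3l UMIs of the EV library and 18.3% of those of WT-Bmal1. In the hashtag replicates they gave 1.70% ± 1.12 and 11.6% ± 8.48 (SD, n = 3).

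Xcr1, the receptor of XCL1, stood in cDC1-like cells at 1011, 764 and 1034 CPM in EV h1, h7 and h8 and 804, 725 and 907 in WT-Bmal1 h3, h5 and h9, and the groups overlapped. In the other named classes with at least 50 cells per library it was at 4.53 CPM or below. The 5 cDC1-like cells of EV h7 make that value the least precise.

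Flt3, the receptor of FLT3L, was highest in mature-dendritic-like cells among the dendritic classes with at least 50 cells. Its level there was 312, 387 and 346 CPM in EV h1, h7 and h8 and 264, 285 and 275 in WT-Bmal1 h3, h5 and h9, and the groups did not overlap. This held for 1 of 3 members in the class, beside 12.3% of all genes, with an exact permutation p of 0.10 (the lower limit for 3 against 3, and 0.85 adjusted over 34 values). cDC1-like levels were 298, 44.9 and 269 CPM in EV and 212, 198 and 175 in WT-Bmal1 and cDC2-like levels 118, 118 and 115 CPM in EV and 36.9, 127 and 153 in WT-Bmal1, both with overlap. The mature-dendritic-like level was above the cDC1-like and the cDC2-like level in 6 of 6 replicates each, and cDC1-like was above cDC2-like in 5 of 6. Summed over dendritic-cell-like cells Flt3 had a log2 fold change of -0.15 ± 0.13 (edgeR adjusted p = 0.631). Of thinned WT-Bmal1 cDC1-like cells with an Xcr1 UMI, 36.7% (23.4 to 51.7) had a Flt3 UMI, and of those without, 14.8% (4.19 to 33.7), so the intervals overlapped.

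**Figure D5:**
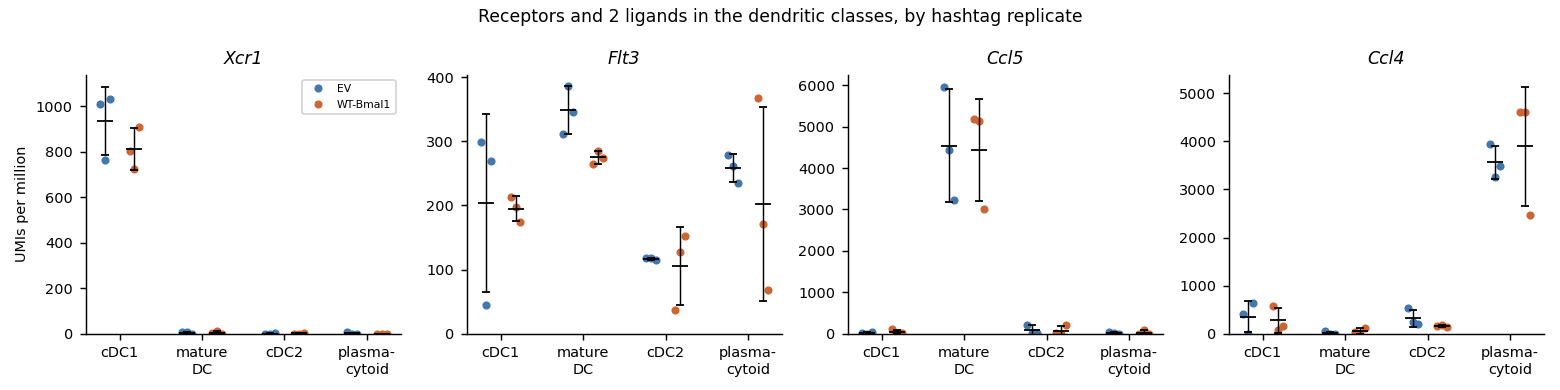
Level of members (CPM) in the dendritic classes, with hashtag replicates as points (blue EV, orange WT-Bmal1) and the mean ± SD of 3. Flt3 in mature-dendritic-like cells lies between 312 and 387 in EV and between 264 and 285 in WT-Bmal1.

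Ccl4 was also present on the dendritic side. cDC2-like levels were 529, 234 and 211 CPM in EV and 152, 185 and 147 in WT-Bmal1 and did not overlap (exact permutation p = 0.10, 0.85 adjusted). The share of all genes without overlap in this class is not given here. The class joined cluster 1 (123 EV and 50 WT-Bmal1 cells) and cluster 19 (99 and 22). Ccl4 overlapped in both, at 72.3 to 438 CPM in EV and 18.8 to 223 in WT-Bmal1 in cluster 1. In cluster 19 it was at 429 to 615 CPM in EV and 0 to 695 in WT-Bmal1. cDC1-like levels were 417, 0 and 647 CPM in EV and 577, 84.4 and 165 in WT-Bmal1, a wide range that overlapped. Plasmacytoid-like cells, which make interferon, had 3746 CPM in EV and 4649 in WT-Bmal1 from 47 and 9 cells, above NK-like cells in 6 of 6 replicates. Summed over dendritic-cell-like cells, the log2 fold change of Ccl4 was -0.93 ± 0.28 (edgeR adjusted p = 0.170), and DESeq2 gave -0.83 with an adjusted p of 0.0467. Plasmacytoid-like cells, with the highest Ccl4 level of the dendritic classes, were 10.5% ± 3.30 of this sum's cells in the EV replicates and 2.64% ± 0.986 in WT-Bmal1. The part of this mix in the change of the sum was not tested. In edgeR 0 of 5 members tested passed in this sum and 48 of 9930 genes did (0.483%), and the replicates did not overlap for 2 of 5, Ccl4 and Flt3l, beside 22% of all genes. Flt3l stood there at 12.8, 14.0 and 9.77 CPM in EV and 8.75, 2.02 and 7.45 in WT-Bmal1 (-0.92 ± 0.44, adjusted p = 0.349). Ccl5 and Ccl3 were at 0.06 ± 0.36 and -0.22 ± 0.41 (adjusted p = 0.958 and 0.844), and Xcl1 had too few UMIs in this sum to be tested.

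Over all hashtagged cells 0 of 6 members and 0 of 13868 genes (0%) passed in edgeR, with 3152 genes under 0.05 unadjusted and 855 called by DESeq2, Ccl4 among them (-1.19, adjusted p = 0.0278). The replicates did not overlap for 3 of 6, Ccl4, Flt3 and Flt3l, all lower in WT-Bmal1, beside 31.9% of all genes. Their log2 fold changes were -1.23 ± 0.36, -0.51 ± 0.20 and -0.98 ± 0.39 (edgeR adjusted p = 0.170, 0.203 and 0.205), and these values include the mix of cell types.

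Genes around the axis were taken as lists. Of the other receptors of CCL3, CCL4 and CCL5, 0 passed in any class tested. Ccr1 stood at 195 ± 41.9 CPM in EV and 94.8 ± 25.8 in WT-Bmal1 in dendritic-cell-like cells (log2 fold change -1.01 ± 0.22, edgeR adjusted p = 0.0921). Of 15 cDC1 genes, 15 were higher in WT-Bmal1 dendritic-cell-like cells and 0 passed (9 under 0.05 unadjusted, beside 15.7% of all genes), with a median log2 fold change of 0.92 against -0.10 over all genes. Irf8, a transcription factor that cDC1 need, was at 0.32 ± 0.16 (adjusted p = 0.371). This sum held more cDC1-like cells in WT-Bmal1, and 11 of the 15 genes also served to name that cluster. The values of these genes are therefore not separate from the share beside which the members were selected, and they are descriptions. Their p-values do not test the level within cDC1-like cells.

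Genes by which dendritic cells recruit and stimulate lymphocytes gave 0 of 7 passing in dendritic-cell-like cells, with Il12b, a subunit of IL-12, at 0.56 ± 0.35 (edgeR adjusted p = 0.470). Of 9 lymphocyte activation genes tested in NK-like cells, 4 were under 0.05 unadjusted, beside 10.8% of all genes. Beside 6 of 9195 genes that passed (0.0653%), 1 of these 9 fell, Nr4a2, an early response gene, from 609 ± 115 to 346 ± 87.6 CPM (log2 fold change -0.82 ± 0.16, edgeR adjusted p = 0.0413). It failed in 4 of 6 fits that left out 1 replicate, without EV h1 (-0.72, edgeR adjusted p = 0.437) or WT-Bmal1 h3, h5 or h9, and with TMM factors, a minimum of 100 UMIs, marker gates and Leiden resolution 2. In T-cell-like cells 0 of 13 passed and 8 were under 0.05 unadjusted (beside 21.6% of all genes), with a median of -0.70 against -0.09 over all genes. Of the other growth factors and receptors of dendritic cells, 0 of 4 passed in dendritic-cell-like cells, with Csf2rb, a receptor chain for GM-CSF, at 412 ± 39.5 CPM in EV and 328 ± 40.2 in WT-Bmal1 (-0.32 ± 0.13, adjusted p = 0.265).

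Likeness of pattern was the Pearson correlation of log2(CPM + 1) over 16 points, 8 classes in each library, among 12724 genes, and the points of a library share its depth. Xcl1 was most like Nlrc3 (0.97), Fasl (0.96) and Ifng (0.96), and Flt3l most like Vps37b (0.97), Il18r1 (0.96) and Osgin1 (0.96). AB124611 (0.96) and Dok2 (0.96) were among the 3 genes most like Ccl3. Ccl4 was most like Cd84 (0.98), Capza1 (0.97) and Arhgap25 (0.97), and Ccl5 most like Nop53 (0.96), Cyb561d1 (0.96) and Stat4 (0.95). Of the receptors, Xcr1 was most like Gcsam (0.95), Snx22 (0.92) and Hacd2 (0.92), and Flt3 most like Aldh1a2 (0.99), Zfp366 (0.98) and Pkib (0.98). Gcsam and Snx22 were among the markers that named the cDC1-like cluster, so their likeness to Xcr1 is not independent of that naming. Among the 7 genes themselves, Xcl1 and Flt3l had an r of 0.90, Ccl3 and Ccl4 of 0.83 and Xcr1 and Flt3 of 0.64.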

How the data were processed

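Single-cell 3′ libraries with hashtag antibodies were deposited for each group. Per the labels the authors processed reads with Cell Ranger 6.1.2 on mm10, and the deposited values are UMI counts per gene and barcode, not normalized. Whether doublets had been removed is not stated.

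Cells with at least 200 genes and at most 20% mitochondrial UMIs were kept, hashtags were assigned by a mixture of 2 components on their counts (scikit-learn 1.9.0), and cells with several hashtags entered no replicate, which also removes doublets between replicates. No doublet caller was run. Cells were clustered with scanpy 1.11.5 (2000 variable genes without the 7 members, 30 components, 15 neighbors, Leiden resolution 1, igraph 0.11.9) and named from at least 3 raised markers. A cluster stayed unnamed if markers of another class were more frequent among its 10 top genes. It also stayed unnamed if its depth was under 0.333 of the library median and no marker of its class was a top gene. Counts were summed per replicate and class and tested with edgeR 4.0.16 (quasi-likelihood, scaled by total UMIs, at least 30 UMIs over the 6 sums, Benjamini-Hochberg over all genes, threshold 0.05), in R 4.3.3. The test between NK-like and T-cell-like cells used the interaction with replicate as a term. DESeq2 1.42.0 was an alternative. Single levels were tested by two-sided exact permutation (scipy 1.17.1), and the models were tested on simulated data.

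Named genes are the 7 members in classes with at least 50 cells per library, up to 4 genes of each list with the most UMIs, and the 3 genes most like each member. Some genes that this rule names are not reported here. Dissociation genes that passed, plasmacytoid-like and mast- or basophil-like cells, clusters and ungated T cells were named after their values were seen. The members and lists were chosen with earlier results of these data known. Alternatives covered scaling, gene and cell filters, hashtag calls, cell classes, left-out replicates and depth.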

Additional observations from a re-analysis of the deposited data

How the results depend on the processing

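No paired analysis was possible because the replicate hashtags of the groups (h1, h7 and h8 against h3, h5 and h9) share no number. Of 435 fold changes of members under alternatives, 383 stayed the same, 13 newly passed, 33 changed sign and 6 moved in size with no test. The same means an unchanged direction and side of the threshold. For values from all cells of the library, which had no test, it means an unchanged direction and a distance within the SE of the reported fold change. Those that newly passed were Ccl3, Ccl4 and Ccl5 in NK-like cells, Xcl1, Ccl3, Ccl4, Ccl5 and Flt3l in T-cell-like cells and Ccl4 in dendritic-cell-like cells with no filter on genes, Xcl1 in T-cell-like cells and Ccl4 in dendritic-cell-like and all cells with DESeq2, and Ccl4 in NK-like cells without EV h8. Leaving out 1 replicate, the log2 fold changes that changed sign ranged over -0.19 to 0.81 for Xcl1 in NK-like cells, -1.85 to 0.014 for Ccl3 and -1.29 to 0.11 for Ccl4 in T-cell-like cells, -0.55 to 0.17 for Ccl3 and -0.24 to 0.46 for Ccl5 in dendritic-cell-like cells, -0.58 to 0.30 for Ccl4 and -0.43 to 0.75 for Ccl5 in macrophage- or monocyte-like cells, and -1.19 to 0.14 for Xcl1 in all cells. For the difference between NK-like and T-cell-like cells they ranged over -0.57 to 0.098 for Xcl1, -0.58 to 0.75 for Ccl3, -0.55 to 0.82 for Ccl4 and -0.57 to 0.28 for Ccl5, and DESeq2 gave -0.078 for Ccl3 and -0.018 for Ccl4. Hashtags by centred log ratio gave -0.082 for Flt3l in NK-like cells and -0.027 for Ccl5 in dendritic-cell-like cells. Gates on marker UMIs gave -0.84 for the latter and 0.92 for Ccl4 in macrophage- or monocyte-like cells. All cells of the library gave -0.046 and -0.45 for Ccl5 in dendritic-cell-like and in macrophage- or monocyte-like cells. The same gates, which take in many cells of other classes, gave -0.65 for Irf8 and -1.12 for Il12b in dendritic-cell-like cells, and Ccr1 there passed with DESeq2 (-0.92, adjusted p = 0.0119) and with no filter on genes. The cause of these changes was not tested.

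Counts of genes called depended on the setting. Leaving out 1 replicate gave 1 to 73 genes in NK-like cells (6 in the reported fit), 4 to 347 in T-cell-like cells (362, with 4 without WT-Bmal1 h3 and 29 without EV h1), 0 to 5 in dendritic-cell-like cells (48), and 0 to 8 for the difference between NK-like and T-cell-like cells (2). No filter on genes gave 69, 1011, 463, 127 and 27 in the NK-like, T-cell-like, dendritic-cell-like and macrophage- or monocyte-like classes and for that difference. DESeq2 gave 78 in NK-like, 142 in dendritic-cell-like, 32 in macrophage- or monocyte-like and 855 in all cells, and 0 for the difference, as did a minimum of 100 UMIs (0). Gates on marker UMIs gave 0, 164 and 0 in the same order for the first 3 of these classes. Leiden resolution 2 gave 18 in NK-like and 163 in T-cell-like cells, the stricter cell filter 10 in NK-like cells, and hashtags by centred log ratio 3 in NK-like and 19 in dendritic-cell-like cells. TMM factors gave 73 in dendritic-cell-like cells and shifted the split of higher to lower calls from 3 and 3 to 7 and 0 in NK-like, from 220 and 142 to 326 and 89 in T-cell-like cells, and from 18 and 30 to 47 and 26 in dendritic-cell-like cells.

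Gates on marker UMIs put 8.83% of EV and 15.6% of WT-Bmal1 cells in the cDC1 gate, but only 11.3% and 21.1% of the gated cells lay in the cDC1-like cluster, with 74.7% and 47.1% macrophage- or monocyte-like and 7.27% and 28.1% melanoma-like. Of the cells in any dendritic gate, 41.0% and 37.9% lay in a dendritic cluster, so values from these gates are not those of dendritic cells alone. With them NK-like and T-cell-like cells gave 84.6% and 87.0% of Xcl1 UMIs in EV and WT-Bmal1, and in EV 72.7% of Ccl5 and 72.9% of Flt3l UMIs. The dendritic gates gave 33.2% and 32.1% of Xcr1 and 41.4% and 41.2% of Flt3 UMIs. Leiden resolution 2 gave 79.1% and 79.8% for Xcl1 and 73.7% for Flt3l in EV, and the stricter cell filter 85.8%, 82.6% and 76.2%. In both settings 1 cluster with 10 of 11 NK markers raised stayed unnamed, because more of its top genes were endothelial markers. It held 197 EV and 65 WT-Bmal1 cells at resolution 2 and 113 and 41 with the stricter filter. These shares therefore leave out cells with NK markers. All cells of the WT-Bmal1 library gave 98.4% for Xcl1 and 69.0% for Flt3l. With 3 replicates a group, exact permutation cannot go below 0.10, and classes of few cells, such as the 5 cDC1-like cells of EV h7, limit the dendritic levels.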

Other observations

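The cluster named mast- or basophil-like, with 16 cells in EV and 11 in WT-Bmal1, had the highest Ccl3 and Ccl4 levels of the named classes, at 2252 CPM in EV and 9846 in WT-Bmal1 for Ccl3 and 6917 CPM in EV and 14092 in WT-Bmal1 for Ccl4. It had 7 of 7 mast or basophil markers raised but also 6 of 6 neutrophil markers, and at Leiden resolution 2 its 16 EV cells stayed mast- or basophil-like while its WT-Bmal1 cells divided into 4 mast- or basophil-like and 7 neutrophil-like cells. The WT-Bmal1 level is therefore that of a different mix of cells, and the groups were not compared. In WT-Bmal1, 1 cell gave 46.0% of these Ccl3 UMIs and 51.7% of the Ccl4 UMIs. The class gave 5.41% of all Ccl3 UMIs in the EV library and 20.3% in WT-Bmal1.

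Ccl5 in melanoma-like cells stood at 2.89, 15.8 and 3.49 CPM in EV and 327, 8.15 and 4.15 in WT-Bmal1, and in the WT-Bmal1 library 1 cell gave 53.8% of its 693 UMIs.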
